A study of Rattus norvegicus with 24 samples.

Results

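The genes described here are Avp (ENSRNOG00000021229), Oxt (ENSRNOG00000021225), Trh (ENSRNOG00000011824), Sim1 (ENSRNOG00000037600) and Caprin2 (ENSRNOG00000047319), which are known from the neurosecretory neurons of the hypothalamic paraventricular nucleus. They are 5 of the 32883 genes in the count table, and all 5 passed the filter on low counts that left 16202 genes. Avp, Oxt, Trh and Sim1 were taken from the study's list of differentially expressed genes for AS versus RS7, and Sim1 and Caprin2 from its list for C versus RS7. The genes were thus chosen by the measured differences between those groups, which are given below as a description.

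RNA was sequenced from a tissue block of the rostral posterior hypothalamic (rPH) region of young adult male Sprague-Dawley rats, with 1 library per rat and 6 rats per group. Rats of the AS group heard 1 loud noise, those of the RS3 group 3 loud noises and those of the RS7 group 7 loud noises, once daily and ending on the same day, while the C group received background noise only. All rats were handled and placed in the chambers each day, gave a tail blood sample after the last exposure, and were killed 24 h after it. The study left out 1 rat per group for library quality, and these are rat 20 of the C group, rat 18 of the AS group, rat 8 of the RS3 group and rat 1 of the RS7 group. The comparisons use the 20 retained rats, 5 per group, with 8087697 to 16947298 counted reads per rat (median 12385781). AS rat 18 stood apart with 4744531 counted reads. Levels are given in CPM, the reads of a gene relative to the counted reads of its library after TMM scaling. Comparisons between groups are log2 fold changes from edgeR. Their standard errors (SE) were worked back from the fold change and the statistic of the edgeR test, which gives no SE itself. The labels name no batch.

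The paraventricular nucleus is the main endocrine output nucleus of the hypothalamus. Its magnocellular neurons send vasopressin and oxytocin to the posterior pituitary, and its parvocellular neurons release thyrotropin-releasing hormone and corticotropin-releasing hormone towards the anterior pituitary. The transcription factor SIM1 is required for these neurons to form, and the RNA-binding protein CAPRIN2 binds vasopressin mRNA. The block was cut for the rPH region, with its lateral and dorsal borders at the mammillothalamic tracts, and was not dissected for the paraventricular nucleus. Whether each block held any of this nucleus, and how much, is therefore not known. In such bulk tissue, fewer cells of a type and less RNA per cell cannot be told apart. Avp, Oxt, Trh and Sim1, which were listed as markers of these neurons, had at least 1 read in each of the 20 retained rats. For Avp and Oxt the lowest was 1 read, under the floor of 3 counts, so presence in every block is not shown. Crh, Otp and Pou3f2, the other markers listed for them, had no identifier in the names used here and were not analysed.

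The sequences before the starts of Avp, Oxt and Trh are shown because these genes varied together from rat to rat. Each is the 250 bases before the RefSeq start in the GRCr8 assembly, written 5′ to 3′ on the strand of the gene, at chr3:138248523-138248772 (minus strand) for Avp, chr3:138235504-138235753 (plus strand) for Oxt and chr4:126301763-126302012 (minus strand) for Trh. Avp and Oxt lie on chromosome 3 on opposite strands. The reads were mapped to the earlier rn6 assembly. Capitals mark any match, on either strand, to ACGTG (a core bound by factors of the SIM1 family with their partners), AGGTCA (a nuclear receptor half-site) or TGACG (a half-site of the cAMP response element).
Avp: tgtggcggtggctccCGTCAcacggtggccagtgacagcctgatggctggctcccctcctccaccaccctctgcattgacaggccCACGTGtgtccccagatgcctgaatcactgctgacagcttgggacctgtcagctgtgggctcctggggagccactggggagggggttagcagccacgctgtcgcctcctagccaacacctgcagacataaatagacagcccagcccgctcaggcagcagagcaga
Oxt: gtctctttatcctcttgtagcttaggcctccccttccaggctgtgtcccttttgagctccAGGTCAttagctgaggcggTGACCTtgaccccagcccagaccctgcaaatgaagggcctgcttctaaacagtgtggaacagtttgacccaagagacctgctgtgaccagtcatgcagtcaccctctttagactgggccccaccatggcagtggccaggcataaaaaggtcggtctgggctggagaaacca
Trh: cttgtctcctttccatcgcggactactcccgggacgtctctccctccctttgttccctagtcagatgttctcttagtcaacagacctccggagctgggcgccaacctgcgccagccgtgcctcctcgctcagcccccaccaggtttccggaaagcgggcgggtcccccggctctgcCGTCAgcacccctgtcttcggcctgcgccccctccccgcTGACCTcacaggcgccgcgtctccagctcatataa
The Avp sequence held ACGTG on both strands within 1 CACGTG, and TGACG on the opposite strand. The Oxt sequence held AGGTCA once on each strand. The Trh sequence held AGGTCA and TGACG, each on the opposite strand. None of the 3 was found in the same window of Sim1 or Caprin2. ACGTG was in 1 of the 5 genes and 16.6% of all 33469 promoters, AGGTCA in 2 of 5 and 14.1%, and TGACG in 2 of 5 and 18.2%. No set of letters among the 3 searched was shared by Avp, Oxt and Trh. A match is a description of these letters, and no factor was measured at them.

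Avp, which encodes vasopressin and its carrier neurophysin, differed more between rats of a group than between C and AS. In the C group its level was 86.8 CPM in rat 19, 14.0 in rat 21, 11.7 in rat 22, 1.07 in rat 23 and 41.2 in rat 24. In the AS group it was 36.4 CPM in rat 13, 84.1 in rat 14, 44.5 in rat 15, 5.11 in rat 16 and 35.0 in rat 17. These ranges overlapped over most of their length, and the C group held both the highest and the lowest value of the 10 rats. In the RS3 group the levels were 55.9 CPM in rat 7, 0.238 in rat 9, 6.53 in rat 10, 0.170 in rat 11 and 6.77 in rat 12. In the RS7 group they were 4.18 CPM in rat 2, 0.322 in rat 3, 2.88 in rat 4, 3.79 in rat 5 and 0.0781 in rat 6. Every RS7 rat lay below every AS rat, whereas C rat 23 lay within the RS7 range and RS3 rats 7, 10 and 12 stood above all RS7 rats. The lowest Avp value, in RS7 rat 6, rested on 1 read and the highest, in C rat 19, on 1126 reads.

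Oxt, which encodes oxytocin, followed the same rats. Its C levels were 123 CPM in rat 19, 14.1 in rat 21, 19.2 in rat 22, 0.604 in rat 23 and 80.7 in rat 24. Its AS levels were 42.6 CPM in rat 13, 143 in rat 14, 48.8 in rat 15, 4.01 in rat 16 and 51.3 in rat 17. As for Avp, rat 19 was the highest and rat 23 the lowest C rat, and rat 14 the highest and rat 16 the lowest AS rat. Its RS3 levels were 36.5 CPM in rat 7, 0.713 in rat 9, 10.6 in rat 10, 0.340 in rat 11 and 15.6 in rat 12. Its RS7 levels were 9.61 CPM in rat 2, 0.644 in rat 3, 3.74 in rat 4, 7.13 in rat 5 and 0.0781 in rat 6. Of these RS7 values only that of rat 6 lay below the span of the other 3 groups, and the AS and RS7 groups overlapped through AS rat 16. The reads of Oxt per read of Avp, a ratio that does not correct for gene length, lay between 0.654 and 2.31 in the 15 rats with at least 10 reads of both (median 1.47). Over those rats the reads of Oxt itself spanned 51 to 1754, so the ratio varied far less than the level.

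Trh, which encodes the precursor of thyrotropin-releasing hormone, spanned a smaller range. Its C levels were 62.1 CPM in rat 19, 29.4 in rat 21, 44.9 in rat 22, 13.4 in rat 23 and 62.8 in rat 24. Its AS levels were 39.0 CPM in rat 13, 84.5 in rat 14, 50.3 in rat 15, 18.0 in rat 16 and 62.2 in rat 17. The lowest rats of both groups, 23 and 16, were those lowest in Avp and Oxt. Its RS3 levels were 45.7 CPM in rat 7, 7.07 in rat 9, 23.2 in rat 10, 7.73 in rat 11 and 23.7 in rat 12. Its RS7 levels were 14.1 CPM in rat 2, 6.19 in rat 3, 13.4 in rat 4, 21.3 in rat 5 and 1.95 in rat 6. RS7 rats 3 and 6 lay below every rat of the C and AS groups, and the other 3 RS7 rats lay within the lower part of those groups.

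Sim1, the transcription factor, was less spread. Its C levels were 15.3 CPM in rat 19, 11.6 in rat 21, 10.8 in rat 22, 7.32 in rat 23 and 13.7 in rat 24. Its AS levels were 8.80 CPM in rat 13, 13.3 in rat 14, 9.05 in rat 15, 10.7 in rat 16 and 12.4 in rat 17. AS rat 16, the lowest AS rat for the 3 hormone genes, held the middle value for Sim1. Its RS3 levels were 7.02 CPM in rat 7, 5.11 in rat 9, 9.82 in rat 10, 8.07 in rat 11 and 9.91 in rat 12. Its RS7 levels were 6.76 CPM in rat 2, 5.39 in rat 3, 8.45 in rat 4, 3.66 in rat 5 and 5.55 in rat 6. All RS7 values lay below all AS values, by a small margin between RS7 rat 4 and AS rat 13, and RS3 rat 7, highest in Avp, Oxt and Trh among RS3 rats, was second lowest for Sim1. Caprin2 varied least, with 15.8 to 21.0 CPM in the C group, 16.4 to 22.3 in AS, 14.9 to 20.0 in RS3 and 13.4 to 16.3 in RS7. Its highest RS7 value, in rat 4, lay just below its lowest AS value, in rat 13.

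**Figure D1:**
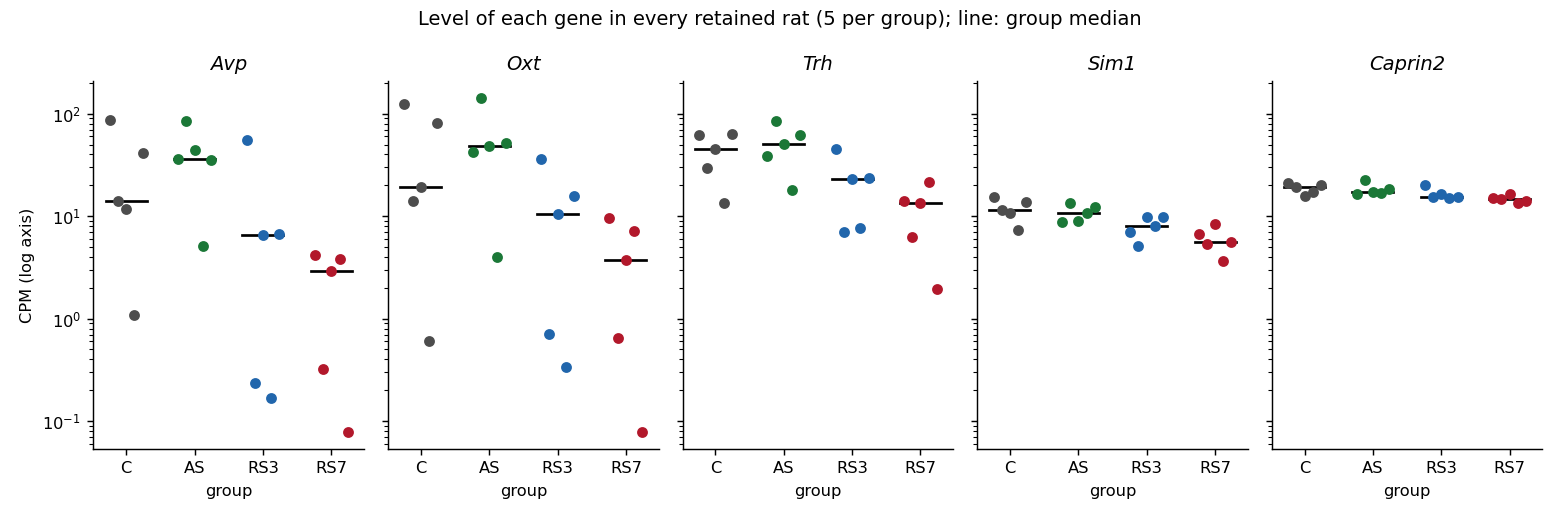
Level of each gene in CPM on a log axis in each of the 20 retained rats, by group, with 1 point per rat in order of rat number and a line at the group median. Avp ran from 0.0781 to 86.8 CPM and Caprin2 from 13.4 to 22.3 CPM on the same axis.

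As mean ± SD over 5 rats, Avp was at 31.0 ± 34.6 CPM in C, 41.0 ± 28.3 in AS, 13.9 ± 23.7 in RS3 and 2.25 ± 1.93 in RS7. For Oxt the means were 47.5 ± 52.3, 58.0 ± 51.3, 12.8 ± 14.8 and 4.24 ± 4.11 CPM in the same order. For Trh they were 42.5 ± 21.3, 50.8 ± 24.9, 21.5 ± 15.7 and 11.4 ± 7.52 CPM. The 3 hormone genes thus shared the order AS, C, RS3, RS7 from high to low. They were listed for AS versus RS7 and were high and low in the same rats, so this shared order is no independent evidence. The Sim1 means were 11.7 ± 3.05, 10.8 ± 1.98, 7.99 ± 2.02 and 5.96 ± 1.78 CPM, and the Caprin2 means 18.7 ± 2.13, 18.3 ± 2.40, 16.5 ± 2.07 and 14.6 ± 1.09 CPM, in the order C, AS, RS3, RS7. The genes were chosen by contrasts of RS7 with C or AS, so the places of C, AS and RS7 are not free of that choice. Neighbours in these orders did not differ beyond the spread between rats in any of the tests that follow.

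The comparison of C with AS asks whether levels differed a day after a single exposure. Values of both groups, each set against RS7, helped choose the genes, so its signs and counts are not free of that choice. None of the 5 genes did in the edgeR test with Benjamini-Hochberg adjustment, with 0 at an adjusted p of 0.05 or less (0% of all genes tested) and 0 at an unadjusted p under 0.05, where 10% of all genes fell. The log2 fold changes, AS minus C, were 0.38 ± 0.94 (SE) for Avp, 0.26 ± 0.93 for Oxt, 0.25 ± 0.55 for Trh, -0.11 ± 0.21 for Sim1 and -0.03 ± 0.10 for Caprin2, of which the last 2 were below 0 (50.7% of all genes). Each was smaller than its SE, and the adjusted p lay between 0.893 for Sim1 and 0.946 for Oxt (edgeR). All 5 signs turned when 1 rat was left out, which was AS rat 14 for Avp, Oxt and Trh and C rat 19 for Sim1 and Caprin2. Oxt also turned without C rat 23 and Caprin2 without AS rat 13.

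The C and AS rats, like the RS7 rats, are among those whose values chose the genes. The counts in the comparisons with RS3 are thus not free of that choice either. Comparing C with RS3 gave log2 fold changes below 0 for all 5 genes (50.7% of all genes), and 0 of 5 passed the adjusted test (0% of all genes). The RS3 minus C log2 fold changes were -1.35 ± 1.04 for Avp, -2.04 ± 1.06 for Oxt, -1.04 ± 0.58 for Trh, -0.55 ± 0.22 for Sim1 and -0.19 ± 0.10 for Caprin2. Adjusted p ranged from 0.242 for Sim1 to 0.537 for Avp (edgeR), and Sim1 alone had an unadjusted p under 0.05 (1 of 5, against 16.3% of all genes). The Avp value rested on RS3 rat 7 and C rat 19, since it was -3.19 without the former and -0.44 without the latter. The Oxt value was -1.28 without C rat 19. Between AS and RS3 all 5 values were again below 0 (50% of all genes), at -1.72 ± 1.03 for Avp, -2.30 ± 1.06 for Oxt, -1.29 ± 0.57 for Trh, -0.44 ± 0.22 for Sim1 and -0.16 ± 0.10 for Caprin2. Here 0 of 5 passed (0% of all genes, adjusted p 1.00 for each in edgeR), as by DESeq2 (0 of 5, 0.0164% of all genes), and Oxt and Trh were under 0.05 before adjustment (2 of 5, against 4.61% of all genes). Without RS3 rat 7 the Avp value was -3.57 and the Oxt value -3.10, and without AS rat 14 the Caprin2 value was -0.07. No gene had groups that did not overlap in these comparisons, against 0.66% of all genes with AS below C, 1.07% with RS3 below C and 0.506% with RS3 below AS.

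From RS3 to RS7 the log2 fold changes, all below 0 (51.3% of all genes), were -2.39 ± 1.40 for Avp, -1.41 ± 1.33 for Oxt, -0.83 ± 0.63 for Trh, -0.42 ± 0.23 for Sim1 and -0.16 ± 0.10 for Caprin2. Of the 5 genes, 0 passed (0% of all genes), with adjusted p from 0.683 to 0.805 (edgeR), and 0 of 5 were under 0.05 before adjustment, against 7.52% of all genes. The groups overlapped for all 5 (0.673% of all genes did not, with RS7 lower). Without RS3 rat 7 the Avp value was -0.54, the Oxt value -0.61, the Trh value -0.40 and the Caprin2 value -0.09. Without RS7 rat 5 the Sim1 value was -0.28. The comparisons share the rats of each group, so their directions are not separate pieces of evidence.

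The contrasts that chose the genes are given as a description, with no p for the 5 genes. RS7 minus C was -3.73 ± 1.28 for Avp, -3.45 ± 1.19 for Oxt, -1.87 ± 0.61 for Trh, -0.97 ± 0.23 for Sim1 and -0.35 ± 0.10 for Caprin2. RS7 minus AS was -4.11 ± 1.26 for Avp, -3.71 ± 1.18 for Oxt, -2.12 ± 0.60 for Trh, -0.86 ± 0.22 for Sim1 and -0.32 ± 0.10 for Caprin2. All 10 were below 0, as were 52.8% of all genes in RS7 against C and 53% in RS7 against AS. By edgeR 0 of the 5 genes were called in C versus RS7 (0.148% of all genes) and 0 in AS versus RS7 (1.67%). The DESeq2 Wald test, the test the study used, called 2 in C versus RS7 (Sim1 and Caprin2, with 2.73% of all genes) and 4 in AS versus RS7 (Avp, Oxt, Trh and Sim1, with 3.9%), and limma-voom called 2 (Sim1 and Caprin2, with 1.01%) and 3 (Trh, Sim1 and Caprin2, with 5.36%). The AS and RS7 groups did not overlap for Avp, Sim1 and Caprin2 (3 of 5, against 1.69% of all genes with RS7 lower), and the C and RS7 groups overlapped for all 5 (1.53% of all genes did not). Since these contrasts were used to choose the genes, nothing is read from these counts.

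**Figure D2:**
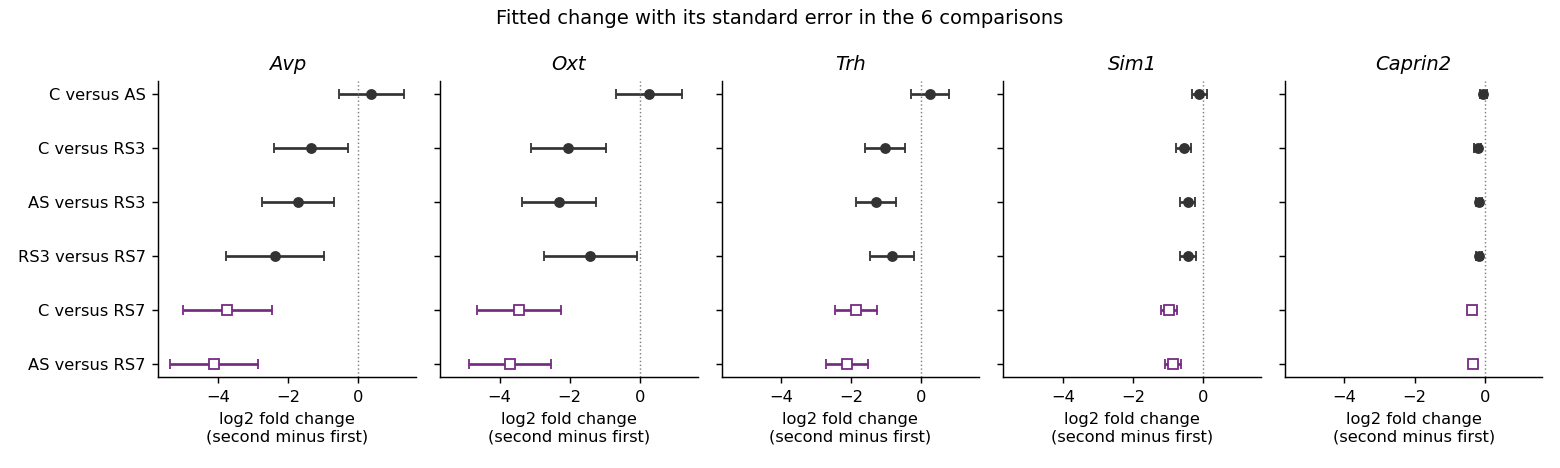
Log2 fold change of each gene from edgeR, second group minus first, with bars of 1 SE worked back from its test, for the 6 comparisons. Filled circles are the 4 comparisons that were tested and open squares the C versus RS7 and AS versus RS7 contrasts that chose the genes, with Avp at -3.73 and -4.11 there.

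The hormone genes were among the most variable genes of the table within groups. The biological coefficient of variation, which is the spread between rats of a group beyond counting noise, was 130% for Avp and 129% for Oxt, at rank 2 and 4 of the 16202 genes tested. Trh had 65.8% (rank 28), Sim1 22.5% (rank 624) and Caprin2 8.90% (rank 6671). The median over all genes was 7.99%, and the value fitted for genes of a like level was 9.11% for Avp, 8.42% for Oxt, 8.36% for Trh, 10.2% for Sim1 and 9.46% for Caprin2. Caprin2 alone was thus as steady between rats as a gene of its level usually was.

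**Figure D3:**
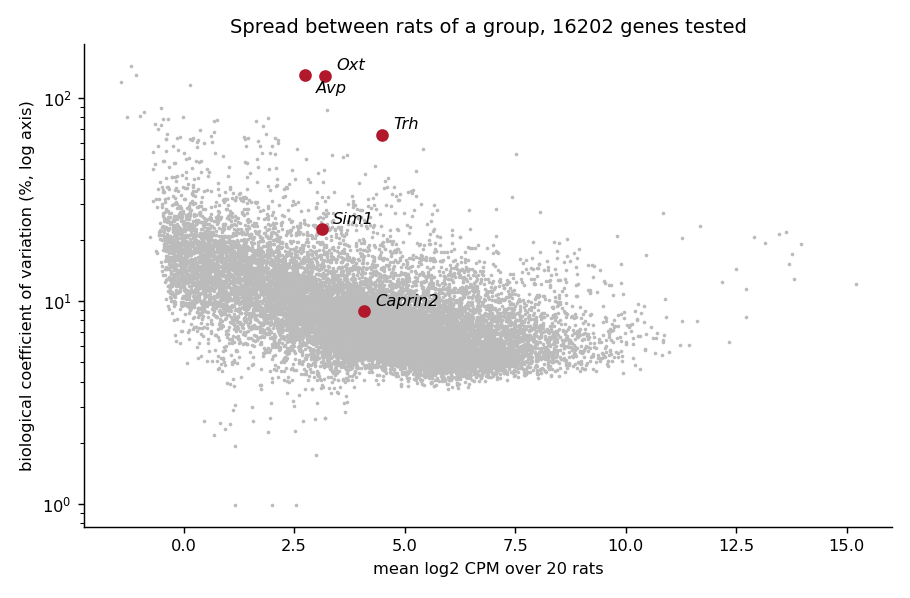
Biological coefficient of variation in percent on a log axis against mean log2 CPM for the genes tested, in grey, with the 5 named genes in red. Avp and Oxt stand near the top edge at 130% and 129%, Trh lies below them at 65.8%, and Caprin2 lies inside the cloud at 8.90%.

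Whether the genes moved together was asked on each rat's deviation of log2 CPM from the mean of its group, which removes the group differences that chose them. Across the 20 rats, Pearson's r was 0.97 for Avp and Oxt (rho = 0.98), 0.95 for Oxt and Trh (rho = 0.95) and 0.93 for Avp and Trh (rho = 0.94). For each of these pairs the permutation p was 1e-05, the smallest that the permutations of rats within groups can give, and 3.33e-05 after adjustment over the 10 pairs. Avp and Oxt deviated to the same side in 19 of 20 rats, Oxt and Trh in 19 and Avp and Trh in 18. Without the 2 rats farthest from the median, r was 0.98, 0.95 and 0.92 for the pairs Avp with Oxt, Oxt with Trh and Avp with Trh.

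Sim1 went along with the hormone genes less closely. Its r was 0.44 with Avp (adjusted permutation p = 0.0983, rho = 0.42), 0.48 with Oxt (0.0752, rho = 0.43) and 0.37 with Trh (0.158, rho = 0.36), and none of these passed. Caprin2 had r = 0.64 with Avp (adjusted permutation p = 0.0138, rho = 0.62), 0.57 with Oxt (0.0315, rho = 0.62), 0.53 with Trh (0.0342, rho = 0.54) and 0.52 with Sim1 (0.0401, rho = 0.56). Without the 2 farthest rats these 4 values were 0.52, 0.53, 0.54 and 0.46. With 1 rat left out, the pair of Caprin2 with Avp passed in all 20 fits (r from 0.51 to 0.70). The pairs of Caprin2 with Oxt (r from 0.50 to 0.64) and with Trh (0.43 to 0.65) each failed in 5 of 20, without C rat 19, C rat 24, AS rat 14, RS3 rat 7 or RS3 rat 11. Its pair with Sim1 (0.46 to 0.66) failed in 8 of 20, without C rats 19, 21, 23 or 24, AS rats 13 or 14, or RS7 rats 4 or 5. Sim1 in turn passed with Avp, Oxt and Trh without RS7 rat 5 (r = 0.60, 0.65 and 0.63), and with Avp also without RS3 rat 7 (0.57). In all, 7 of 10 pairs passed, and all 10 values of r were above 0. The share of other gene pairs that would pass was not computed, so the count is not read as particular to these genes. With Caprin2, Neurl1 at r = 0.72 held rank 24 among the other 16201 genes tested, and Avp, Oxt, Trh and Sim1 ranked lower still. The difference in r between Sim1 and Caprin2 was not tested. Both values of a rat come from 1 library and its scaling, a source that any pair of genes shares.

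**Figure D4:**
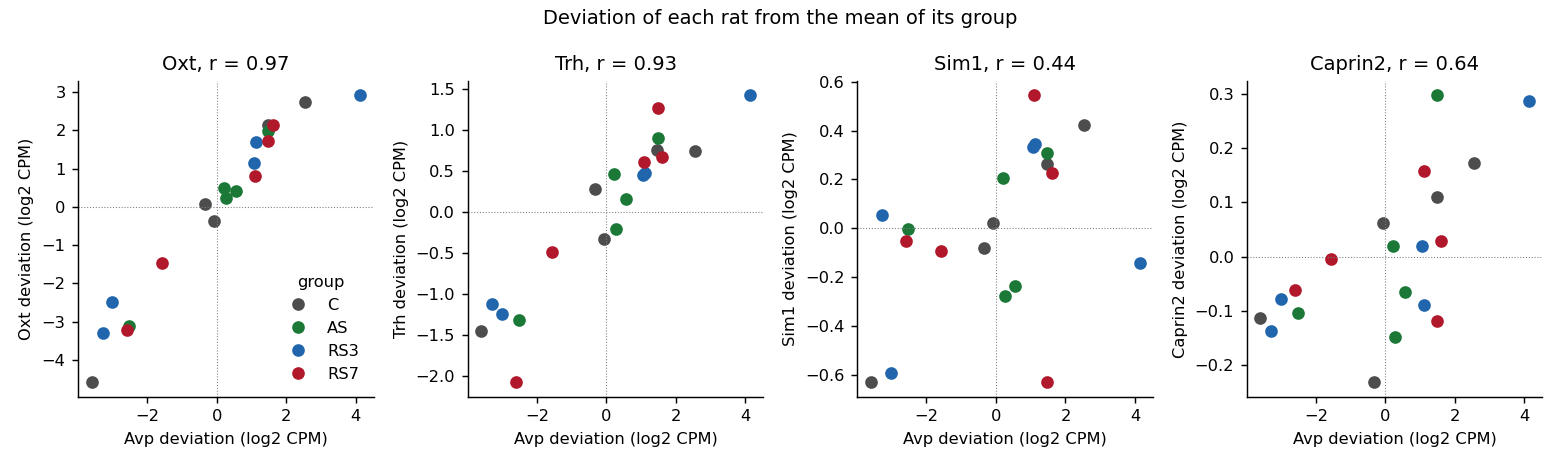
Deviation of log2 CPM from the group mean for Avp (horizontal) against Oxt, Trh, Sim1 and Caprin2 (vertical), 1 point per retained rat, coloured by group. The points run along a line for Oxt (r = 0.97) and Trh (r = 0.93) and scatter for Sim1 (r = 0.44) and Caprin2 (r = 0.64), whose vertical axes are also much shorter.

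Among the other 16201 genes tested, those most like Avp in these deviations were Oxt (rank 1), Trh (rank 2) and Isl1 (rank 3, r = 0.93), and those most like Oxt were Avp, Trh and Isl1 (r = 0.94). Isl1, a LIM homeodomain transcription factor, was the gene most like Trh (r = 0.98), ahead of Oxt and Avp. The median of Isl1 was 11.9 CPM in C, 12.2 in AS, 6.89 in RS3 and 4.78 in RS7. Its highest RS7 value of 5.93 lay below its lowest AS value of 7.07 (1.69% of all genes had RS7 wholly below AS). Isl1 has a symbol here because the study called it, so its levels by group are no independent evidence. Among genes with a symbol, Sim1 was most like Gpr165 (rank 1, r = 0.90), Arhgap36 (rank 2, r = 0.89) and Hap1 (rank 5, r = 0.87). Hap1 encodes the huntingtin-associated protein. For Caprin2, the kinase gene Pak6 (rank 11, r = 0.74) and Neurl1 (rank 24, r = 0.72) were among the most alike. These values describe 20 rats and carry no test, and some genes of higher rank are passed over. No gene was among the 3 listed for both Sim1 and a hormone gene, but so short a list does not show that they share none. Penk, for 1, had r = 0.72 with Sim1 and 0.62 with Avp.

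The rats that the study left out were not used to choose the genes, and their values are set beside the 5 retained rats of their group on a TMM scale over all 24 rats. C rat 20 had 30.8 CPM of Avp, 37.6 of Oxt and 42.4 of Trh, all inside the retained C range. RS7 rat 1 had 0.572 CPM of Avp, 1.62 of Oxt and 10.8 of Trh, all inside the retained RS7 range. These ranges are wide. For the same genes C rat 20 also lay inside the retained AS range, and RS7 rat 1 inside the retained RS3 range. Their place therefore does not tell the groups apart. RS3 rat 8 had 37.2 CPM of Avp, inside the RS3 range, and 40.7 of Oxt and 45.2 of Trh, just above the highest retained values of 34.4 and 43.0. By plain CPM, without TMM, both lay inside the RS3 range, Oxt at 35.9 against a highest value of 36.7 and Trh at 39.9 against 45.9. AS rat 18 had 0 reads of Avp, which allows up to 0.632 CPM before TMM scaling, 3 reads of Oxt (1.15 CPM) and 20 reads of Trh (7.66 CPM), all below the retained AS rats. The statement that every RS7 rat lay below every AS rat for Avp thus holds for the retained rats and not for all 24.

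Sim1 lay above the retained range in all 4 left-out rats on this scale, with 16.9 CPM in C rat 20, 24.5 in AS rat 18, 12.8 in RS3 rat 8 and 13.1 in RS7 rat 1. By plain CPM the same rats had 15.1, 13.5, 11.3 and 9.58, and only RS3 rat 8 and RS7 rat 1 lay above the retained rats of their group. The factor between the scales was 1.82 for AS rat 18, 1.36 for RS7 rat 1, 1.13 for RS3 rat 8 and 1.12 for C rat 20. RS7 rat 1 thus lay above the lowest retained AS rat for Sim1 on both scales (8.34 CPM with TMM and 8.96 plain). Caprin2 lay inside the retained range in all 4 on the TMM scale and below it in AS rat 18 and RS7 rat 1 by plain CPM. Over all 24 rats the RS7 and AS groups therefore overlapped for Sim1 on both scales, and for Caprin2 by plain CPM only. The study left these rats out for few reads or for adapter and GC content without numbering them, AS rat 18 had the fewest counted reads here, and the part of library quality in these values was not tested.

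Of 81 further genes on lists of the paraventricular pathway and of other cell types, 29 had an identifier, on 31 rows, because symbols came from the study's own lists of genes called in these samples. Their directions in the contrasts with RS7 that chose the genes are for that reason no independent evidence. In the comparisons that were tested, 0 of the 31 rows passed in C versus AS, C versus RS3, AS versus RS3 or RS3 versus RS7 (edgeR, lowest adjusted p 0.180, for Gad2 and Aqp4 in C versus RS3). Before adjustment 2, 13, 12 and 7 of the 31 had p under 0.05 in these 4 comparisons in that order, against 10%, 16.3%, 4.61% and 7.52% of all genes. The list rows come from genes the study called with the same C, AS and RS7 rats, so these counts are a description.

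Of the other peptides of these nuclei, the opioid precursor Penk had a log2 fold change of -0.44 ± 0.22 in C versus RS3 and -0.29 ± 0.22 in AS versus RS3, and galanin (Gal) of -0.52 ± 0.35 and -0.35 ± 0.35. Cholecystokinin (Cck) had the other sign, at 0.21 ± 0.14 and 0.25 ± 0.14. In the contrasts that chose the genes, RS7 minus AS was -0.71 for Penk, -1.02 for Gal and 0.51 for Cck, and edgeR called 0 of these 3, while DESeq2 called Penk and Cck in that contrast. Among the receptors of the list of regulators, Prlhr, the receptor for prolactin-releasing peptide, had -1.16 ± 0.53 in C versus RS3 and -1.34 ± 0.51 in AS versus RS3, and the angiotensin receptor Agtr1a had -0.59 ± 0.30 and -0.22 ± 0.30. Prlhr deviated with Oxt (r = 0.78) more closely than with Sim1 (r = 0.23), and Agtr1a with Sim1 (r = 0.85) more closely than with Oxt (r = 0.52), as a description over the same rats. All 6 regulator rows, which include Caprin2, were lower in RS7 than in AS (53% of all genes), the contrast from which such rows were listed, and edgeR called 2 of them (1.67% of all genes), Magel2 (-0.62 ± 0.15) and Ndn (-0.39 ± 0.09), imprinted genes of the Prader-Willi region.

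Lnpep, which encodes oxytocinase, an aminopeptidase that cleaves oxytocin and vasopressin, went the other way. Its 2 rows had RS7 minus AS values of 1.03 ± 0.17 and 0.85 ± 0.15, both called by edgeR, and RS7 minus C values of 0.77 ± 0.17 and 0.80 ± 0.15, of which the second was called. As the table holds 2 identifiers for this symbol, reads may be divided between them. In C versus RS3 they were 0.41 ± 0.17 and 0.33 ± 0.16, neither of which passed. Of the processing enzymes, Pcsk2, a prohormone convertase, had 0.25 ± 0.11 and Qpct, which forms the blocked N-terminus of such peptides as thyrotropin-releasing hormone, 0.00 ± 0.14 in C versus RS3, and edgeR called 0 of these 2 rows in any comparison, while DESeq2 called each in a contrast with RS7. The transcription factor list held Nhlh2 beside Sim1, at 0.25 ± 0.11 in C versus RS3. By edgeR it was called in no comparison and by DESeq2 in both contrasts with RS7 that chose the genes. The hypothalamic identity list had 5 rows (Isl1, Gal, Calcr, Lhx9 and Nnat), of which 4 were below 0 in C versus RS3 and 0 were called there.

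The summed levels of markers of other cells are given as a description, and their differences between groups were not tested. A marker could enter a sum only if the study had called it, mostly in contrasts with RS7. The summed level of the 6 rows of dorsal thalamus markers (Tcf7l2 on 2 rows, Lef1, Rora, Ntng1 and Slc17a6) was 1009 to 1345 CPM in C, 1066 to 1483 in AS, 1107 to 1639 in RS3 and 1517 to 1912 in RS7, so that all RS7 rats lay above all C and AS rats. Slc17a6 made up much of it, with a C mean of 578 CPM against 1228 for the whole sum. How far the sum stands for thalamic cells was not tested. The summed level of 5 prethalamic and zona incerta GABA markers (Gad1, Gad2, Slc32a1, Dlx5 and Dlx6) was 591 to 1004 CPM in C, 689.7 to 985 in AS, 493 to 681 in RS3 and 480.4 to 643 in RS7, and all RS3 and RS7 rats lay below all AS rats. Gad1, Gad2 and Slc32a1, which mark GABA neurons of any region, made up nearly all of that sum, with C means of 257, 482 and 93.9 CPM against 4.07 for Dlx5 and 2.95 for Dlx6. The sum of 3 astrocyte markers (Aqp4, Slc1a2 and Slc1a3) overlapped between the groups, at 1888 to 2295 CPM in C and 1751 to 2033 in RS7. All rows of the thalamic list were higher and all rows of the GABA list lower in RS7 than in AS, with 1 of 6 thalamic rows (Rora at 1.14 ± 0.21) and 1 of 5 GABA rows (Gad1 at -0.71 ± 0.13) called by edgeR (1.67% of all genes). These rows too come from the study's lists for contrasts with RS7, and nothing is read from their counts or from the place of RS7 in their sums. Slc1a2 was the astrocyte marker called in AS versus RS7, at 0.42 ± 0.08.

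With group means removed, these sums were set against the 5 genes in 15 relations, a check chosen after the data had been seen. The GABA sum had r = 0.60 with Avp (adjusted permutation p = 0.0439, rho = 0.61), 0.69 with Oxt (0.0271, rho = 0.65), 0.62 with Trh (0.0302, rho = 0.66) and 0.80 with Sim1 (0.00270, rho = 0.78). Without the 2 rats farthest from the median these were 0.38, 0.52, 0.47 and 0.68. Caprin2 had r = 0.42 with it (adjusted permutation p = 0.269, rho = 0.51). The thalamic sum had r = -0.52 with Sim1 (adjusted permutation p = 0.0792, rho = -0.57), and -0.64 without the 2 rats farthest from the median. By rho this relation passed (adjusted permutation p = 0.0439). With Avp, Oxt and Trh the thalamic sum had r between 0.21 and 0.23, and the astrocyte sum passed with none of the 5. In all 4 of 15 relations passed by r. The share of other genes that would pass with these sums was not computed, so the count is not read as particular to these genes. The part of these other cells in the levels of the 5 genes was not tested.

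**Figure D5:**
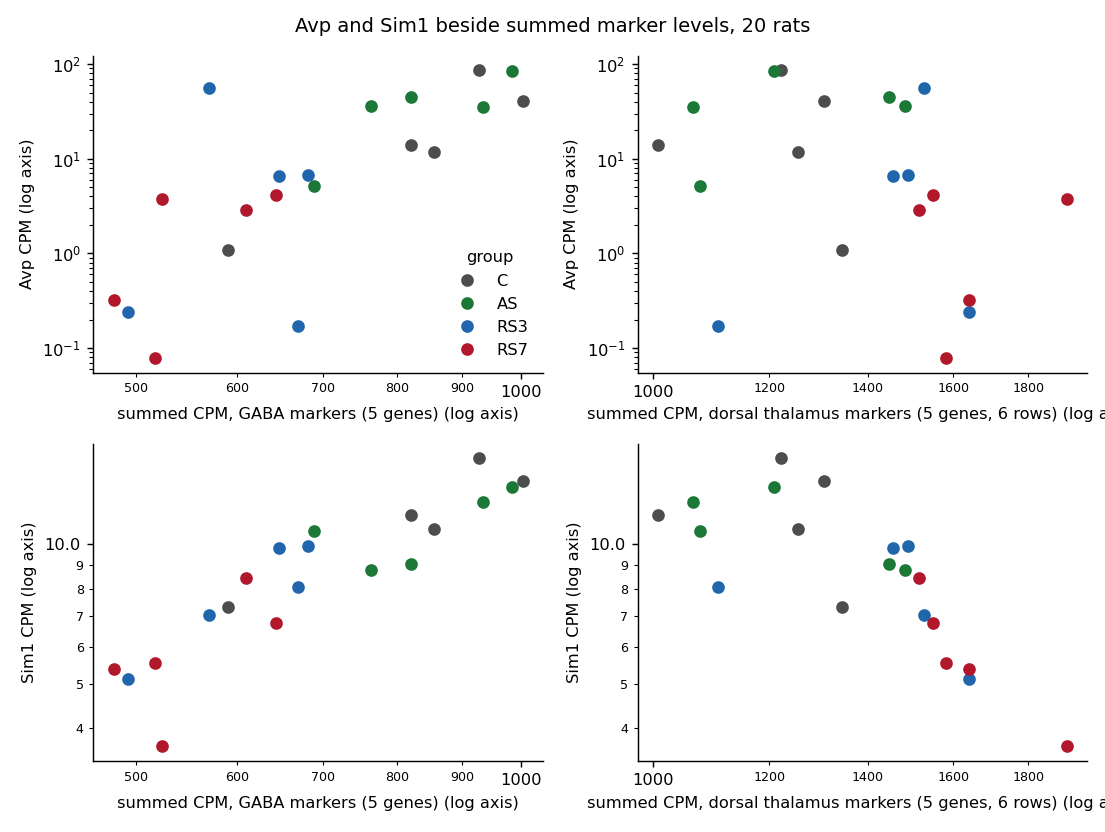
Level of Avp (top) and Sim1 (bottom) against the summed CPM of GABA markers (left) and dorsal thalamus markers (right), on log axes, 1 point per retained rat, coloured by group. Group means are not removed here, and Avp, Sim1 and the marker rows were all listed from contrasts with RS7. No relation is therefore read from the points across groups. The RS7 rats lie at the right of the thalamic axis, from 1517 to 1912 CPM.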

How the data were processed

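RNA from the rPH block of 24 rats was sequenced as paired-end polyadenylated RNA libraries. The authors deposited raw, unnormalized counts of reads per Ensembl gene, made with Trimmomatic 0.36, HISAT2 2.0.5 and featureCounts on the rn6 genome. Strand and multimapping settings are not given in the sources used here, so overlapping genes may share reads. The table has no symbols. They were taken from the study's supplementary lists, which named 779 identifiers. The supplied reference table matched 0. The rats left out by the study were found by recomputing the mean level of each listed gene for each of the 1296 ways of dropping 1 rat from every group.

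The counts were tested with edgeR 4.0.16 (R 4.3.3), with genes kept by filterByExpr (minimum count 10), TMM scaling, 4 groups in 1 quasi-likelihood fit, and Benjamini-Hochberg adjustment within each comparison at 0.05. Log2 CPM used a prior count of 2. Correlations of deviations from group means were tested by 100000 two-sided permutations of rats within groups. Each rat is a separate animal. Floors are 3 counts and cover counting error only. The tests were tested on simulated data. Alternatives were DESeq2 1.42.0, limma-voom (limma 3.58.1) with sample weights, DESeq2 size factors, no filter, all 24 rats, only the groups compared, and leaving out each rat in turn.

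The genes and lists were chosen with earlier results of these data known. Named are the 5 genes, list genes with an identifier, and for each of the 5 the 3 tested genes with a symbol of highest r, apart from items that are not reported here. No list of neighbouring hypothalamic peptides or choroid plexus genes had an identifier, and these were not analysed here. Promoter sequences are RefSeq's, for the GRCr8 assembly, and all 5 genes were matched by symbol. Protein sequences were not used here.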

Additional observations from a re-analysis of the deposited data

Results flagged for a closer look

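Of the 15 values of the 5 genes in the left-out rats of the noise groups, which enter no comparison, 1 lay above every control rat. Sim1 was at 24.5 CPM in AS rat 18 on the TMM scale over 24 rats, against 6.88 to 16.9 CPM in the 6 control rats. It rested on 64 reads of 4744531, and in plain CPM, without TMM, it was 13.5, inside the control range of 7.46 to 15.6. Among the retained rats, no value stood apart from the others of its group of 5 by Dixon's test on log2 CPM, over 20 sets of a gene and a group. On the CPM scale, added after the values had been seen, 1 did: Avp in RS3 rat 7 was at 55.9 CPM against 0.170 to 6.77 in the other 4 rats, with a gap of 0.882 of the whole range. Chance gives about 1 such set in 20.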

How the results depend on the processing

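In C versus AS, C versus RS3, AS versus RS3 and RS3 versus RS7, the count of the 5 genes called was 0 under every alternative run, although in C versus RS3 the DESeq2 Wald test gave none of the 5 an adjusted p. Directions changed only in C versus AS and only when 1 rat was left out, where the log2 fold change ranged from -0.062 to 1.28 for Avp, -0.40 to 1.01 for Oxt, -0.010 to 0.47 for Trh, -0.26 to 0.017 for Sim1 and -0.12 to 0.013 for Caprin2. Values moved by over 1.5 times without changing a call. By limma-voom with sample weights, Avp was -2.72 in C versus RS3 (main value -1.35), -3.65 in AS versus RS3 (-1.72) and -1.45 in RS3 versus RS7 (-2.39). Over all 24 rats Avp was -0.87 in C versus RS3 and -1.06 in AS versus RS3, where Trh was -0.84 (-1.29) and Caprin2 -0.10 (-0.16). In the contrasts that chose the genes, all 10 values stayed below 0. There DESeq2 called 2 of the 5 against C and 4 against AS, limma-voom 2 and 3, and the fit of only the AS and RS7 groups 2, while leaving out 1 rat gave 0 to 2 and 0 to 1. Of all genes, DESeq2 called 405 and 579 in these contrasts, limma-voom 164 and 868 and edgeR 24 and 270, and the cause was not tested. The 7 pairs that moved together became 4 to 9 with 1 rat left out, with 4 without C rat 19, C rat 24 or AS rat 14. Sim1 with Caprin2 had r = 0.41 over all 24 rats and no longer passed. Of the further list genes, 0 were called in the 4 tested comparisons, 2 with DESeq2 and 0 to 1 with 1 rat left out (1 without C rat 23). With 5 rats per group and a coefficient of variation of 130%, even the Avp value of -4.11 ± 1.26 in AS versus RS7 was not called by edgeR. Smaller changes of Avp may therefore have been missed. No paired analysis was possible because each rat has its own number and no number is shared between groups.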
